A study of Mus musculus with 8 samples.

Results

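The genes described here encode enzymes that add methyl groups to lysines of histones, or remove them. They were taken by name from the authors' deposited comparison table: every row whose symbol starts with Kmt, Kdm or Setd followed by a digit (or Setdb), together with Nsd1 to Nsd3, Ehmt1, Ehmt2, Suv39h1, Suv39h2, Dot1l and Ash1l. This rule used no measured value and found 45 of 14853 genes, of which 27 are methyltransferases or related SET-domain proteins and 18 are demethylases. All 45 carry the same symbol in RefSeq, and a 46th RefSeq match, the pseudogene Kdm4dl, was not analysed here.

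RNA was sequenced from undifferentiated spermatogonia (germline stem cells and their near progeny in the testis) of C57BL/6 mice aged 8 to 12 weeks. The 4 samples called TERT-del carried CreER on one Tert allele and a loxP-flanked second allele (TERTCreER/flox), and the 4 called TERT-hetero carried CreER opposite a normal allele (TERTCreER/+). All 8 also carried Rosalsl-Tdtomato/+, a red fluorescent reporter that Cre switches on, and all received tamoxifen, which activates CreER. At day 7, tdTomato-positive cells that were MCAM-high and KIT-negative were sorted. Tert encodes the reverse transcriptase of telomerase, the CreER allele is present in the controls too, and no sample without Cre or without tamoxifen is among them. The labels do not say whether samples are separate mice or pools, so the spread behind each standard error (SE) may in part be technical.

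Histone lysine methylation is written by SET-domain enzymes and by the structurally unrelated DOT1L, and erased by flavin-dependent amine oxidases (KDM1) and by JmjC-domain oxygenases (the other KDM families). Methylation of histone H3 lysine 4 (H3K4) marks active promoters and enhancers, of H3K36 and H3K79 transcribed gene bodies, and of H3K9 and H4K20 mainly silent chromatin. In male germ cells several of these enzymes are known to be needed, among them Kmt2b in spermatogonia and Ehmt2 and the Suv39h genes at the entry into and passage through meiosis.

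Every value below is from the authors' deposited table or computed from it, as the log2 fold change of CreER/flox over CreER/+ with its SE. Values per library were not used here, so whether the groups overlap cannot be given for any gene. The direction follows the table's name (flox against WT). The targeted gene checks neither sign nor labels, since Tert stood at 0.29 (SE 0.26, adjusted p 0.595) per the authors' deposited table and the exons between its loxP sites are not named in the labels. A gene was called changed at an adjusted p under 0.05 in the authors' DESeq2 Wald test over all genes.

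Markers of the label and of later germ cells were both present. The 8 markers of undifferentiated spermatogonia examined (among them Gfra1, Zbtb16, Id4 and Mcam) had, per the authors' deposited table, mean normalized counts of 684 to 5143, against 93.1 for Kit and 350.4 for Stra8, the markers of differentiation, and 13.0 to 46.4 for the measured Sertoli, Leydig, myoid and leukocyte markers. All 8 were below 0 (-0.0013 to -0.23, median -0.093), with none called and 2 lower at an unadjusted p under 0.05. With a joint trend in length, GC content and mean count removed, all 8 stayed below 0. The germ cell markers Ddx4 and Dazl were at 0.20 (SE 0.11) and 0.23 (SE 0.06). Dazl was called higher (adjusted p 0.00997 by the authors' DESeq2 test), and stood at 0.027 with the trend removed. Kit stood at -0.29 (SE 0.21) and Stra8 at 0.30 (SE 0.15), neither called per the authors' deposited table. The 5 spermatocyte markers had mean counts of 41.6 (Spo11) to 2333 (Sycp1), which reach the range of the undifferentiated markers, and 1 of them, Piwil1, was lower (-0.73, SE 0.14, adjusted p 0.000111) per the authors' deposited table. The other spermatocyte markers were at 0.14 (Sycp1), 0.089 (Sycp3), -0.35 (Spo11) and 0.28 (Hormad1), without a call. With the trend removed, 4 of the 5 were below 0 and Piwil1, at -0.69, was the only one called. Spermatid transcripts were also present, at mean counts of 21.8 to 1924, and all 8 spermatid markers examined were below 0 in the flox samples, by log2 fold changes of -1.01 to -1.47, with 3 called lower (Odf1, Spem1 and Tssk1). All 8 were lower at an unadjusted p under 0.05. With the trend removed 5 were called lower, Tnp1 and Tnp2 joining those named. The part of these later germ cell transcripts in the values below was not tested. In bulk RNA, fewer cells of a type and less RNA per cell cannot be told apart.

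Of the 45 genes, 4 were lower in the flox samples per the authors' deposited table and none was higher by the authors' DESeq2 test. These were Kmt2d, Ehmt2, Dot1l and Setd5, all among the 27 methyltransferases or related SET-domain proteins, with changes of -19.1% to -14.2%. The share of all genes called was 5.36%, with 3.42% called lower and 1.94% called higher, beside 8.89% of these genes called lower. At an unadjusted p under 0.05, 8 of the 45 were lower and 0 higher, where 10.5% and 9.15% of all genes were. Ranked by p among all genes, Ehmt2 was 265th, Kmt2d 353rd, Dot1l 611th and Setd5 712th. Under a t distribution with 6 degrees of freedom 0 of the 45 passed (6 at an unadjusted p under 0.05), and likewise 0 (4 unadjusted) once the Wald statistics were divided by their central SD of 1.45, settings that left 0 and 5 calls over all genes. Subtracting a trend fitted jointly to mean count, GC content and transcript length also left 0 of the 45. The median log2 fold change of the 45 genes was -0.050, against 0.00071 for all genes, and 29 of 45 were below 0, against 49.9% of all genes. Members of the list range from -0.59 to 0.39, and the 43 whose mean count is 100 or more from -0.31 to 0.39.

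Promoter sequences are shown for Kmt2d, Dot1l and Ehmt2, as the called genes whose listed RefSeq start lies in GC-rich sequence. The start listed for Kmt2d lies inside the gene, whose 5′ end is at 98874077 on chromosome 15. The run printed for Ehmt2 also lies inside its gene, whose 5′ end is at 34898463. That of Dot1l runs across the 5′ end listed for its gene, 80755101. Each run holds the 250 bases before an annotated start in GRCm38.p6, 5′ to 3′ on the gene's strand, with GGGCGG (GC box, either strand) and CACGTG (E-box) in capitals.
Kmt2d, chr15:98871206-98871455, minus strand: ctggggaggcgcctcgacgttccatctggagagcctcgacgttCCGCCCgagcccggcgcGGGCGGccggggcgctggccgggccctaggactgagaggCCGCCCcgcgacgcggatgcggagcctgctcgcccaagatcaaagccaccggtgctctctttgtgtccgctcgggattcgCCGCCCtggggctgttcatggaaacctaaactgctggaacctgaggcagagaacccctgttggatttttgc
Dot1l, chr10:80754953-80755202, plus strand: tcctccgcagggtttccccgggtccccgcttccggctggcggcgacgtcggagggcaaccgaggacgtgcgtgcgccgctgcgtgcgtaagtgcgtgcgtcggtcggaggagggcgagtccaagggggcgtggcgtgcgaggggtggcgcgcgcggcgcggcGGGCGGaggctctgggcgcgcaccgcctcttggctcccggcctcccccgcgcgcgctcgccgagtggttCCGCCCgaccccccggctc
Ehmt2, the second of its annotated starts, chr17:34898720-34898969, plus strand: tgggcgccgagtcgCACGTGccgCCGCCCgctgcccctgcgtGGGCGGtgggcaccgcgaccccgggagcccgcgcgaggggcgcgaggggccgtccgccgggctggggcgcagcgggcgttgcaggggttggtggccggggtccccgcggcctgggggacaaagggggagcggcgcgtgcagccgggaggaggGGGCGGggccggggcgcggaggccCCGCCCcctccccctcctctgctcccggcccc

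The 3 printed stretches hold 4, 2 and 4 GC boxes, in the order shown, and only that of Ehmt2 holds an E-box. The stretch before the first listed start of Ehmt2, 34898224 to 34898473, lies at the gene's 5′ end and is not printed. It holds 2 E-boxes and 2 GC boxes. RefSeq promoters, each from 250 bases before to 50 after a start, were found for 33 of the 45 genes, in 45 windows. GGGCGG or its reverse complement lay in 71.1% of these windows, against 59.2% of windows of all genes in the table and 35.7% of all mouse promoters. CACGTG lay in 8.89%, beside 9.99% for genes in the table and 7.15% for all promoters. CCAAT or its reverse complement lay in 40% of the members' windows, beside 38.6% and 37.4%, and TATAAA in 2.22%, beside 7.46% and 13.6%. The median GC content of the members' windows was 63.7%, against 60% for genes in the table. The only listed start of Setd5 follows the stretch 113104685 to 113104934 of chromosome 6, inside the gene, whose 5′ end is at 113077262. Its window has 39.7% GC and holds none of the 4 motifs. The sequence before the 5′ end of Setd5 was not examined. A match of letters is a description, not a binding site.

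Writers of H3K4 methylation were all below 0. The group has 8 measured members, with log2 fold changes of -0.10 to -0.31 and a median of -0.18 per the authors' deposited table, and 1 of them passed the test. Kmt2d (Entrez gene 381022, chromosome 15, 98831669 to 98874077 in GRCm38) encodes MLL4, which monomethylates H3K4 at enhancers. It fell by 0.31 (SE 0.09, adjusted p 0.0158) at a mean count of 3396 per the authors' deposited table, a fold of 0.809 with a 95% interval of the change of -28.0% to -9.07%. With that trend removed, Kmt2d stood at -0.059 (adjusted p 0.844) and the median of the 8 genes at -0.057. Its close paralogue Kmt2c, in a sister complex at enhancers, had a mean count of 4274 and stood at -0.16 (SE 0.09, adjusted p 0.315) per the authors' deposited table.

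Next to the threshold stood Kmt2a and Kmt2b, which encode MLL1 and MLL2, the trithorax-type enzymes that bind menin and act at promoters. Kmt2a was at -0.21 (SE 0.08, adjusted p 0.0989) and Kmt2b at -0.17 (SE 0.07, adjusted p 0.0996) per the authors' deposited table, with intervals below 0 and no call. Setd1a and Setd1b, which carry out most H3K4 trimethylation, were at -0.10 (SE 0.07) and -0.21 (SE 0.10) in that deposited table, with mean counts of 3063 and 776. Kmt2e, whose SET domain has little known activity, was at -0.18 (SE 0.11), and Setd7, a monomethyltransferase that also acts on proteins other than histones, at -0.18 (SE 0.11), both per the authors' deposited table. Setd1a shares 51.8% of its exon bases with the same-strand gene model Gm49388, so its reads may have been split or dropped by the authors' counting.

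Erasers of the same mark lay close to 0. The JmjC H3K4 demethylase genes Kdm5a, Kdm5b, Kdm5c and Kdm5d had log2 fold changes of 0.034, -0.0060, 0.038 and 0.072 per the authors' deposited table, with adjusted p values of at least 0.820. Kdm5b has the highest mean count of the list, 6603, and its 95% interval ran from -8.05% to 7.86%. For Kdm5a, at a mean count of 4450, it ran from -6.15% to 11.6%. The intervals of the sex-linked Kdm5c (-13.2% to 21.4%) and Kdm5d (-11.2% to 24.5%, at a mean count of 359.7) were wider, and a change equal to the deposited one of Kmt2d, -19.1%, lay outside all 4. That contrast holds for the deposited values and SEs only. The interval of Kmt2d itself, -28.0% to -9.07%, overlaps those of Kdm5c and Kdm5d. With the joint trend removed, Kmt2d stood at -0.059. Kdm5a, Kdm5b, Kdm5c and Kdm5d then stood at 0.059, 0.038, 0.13 and 0.10, under SEs of 0.059 to 0.12. The flavin-dependent H3K4 demethylase Kdm1a (LSD1) stood at 0.0053 (SE 0.06, adjusted p 0.979) and its paralogue Kdm1b (LSD2), known for its role in the oocyte, at 0.15 (SE 0.08, adjusted p 0.279, mean count 1819.5) per the authors' deposited table. Kdm1b shares 9.19% of its exon bases with the opposite-strand gene Dek, which was called higher (0.25, SE 0.07, adjusted p 0.0213 by the authors' DESeq2 test). Whether reads of Dek were counted for Kdm1b was not tested. The difference between writers and erasers was not tested, since the table gives no values per library.

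**Figure D1:**
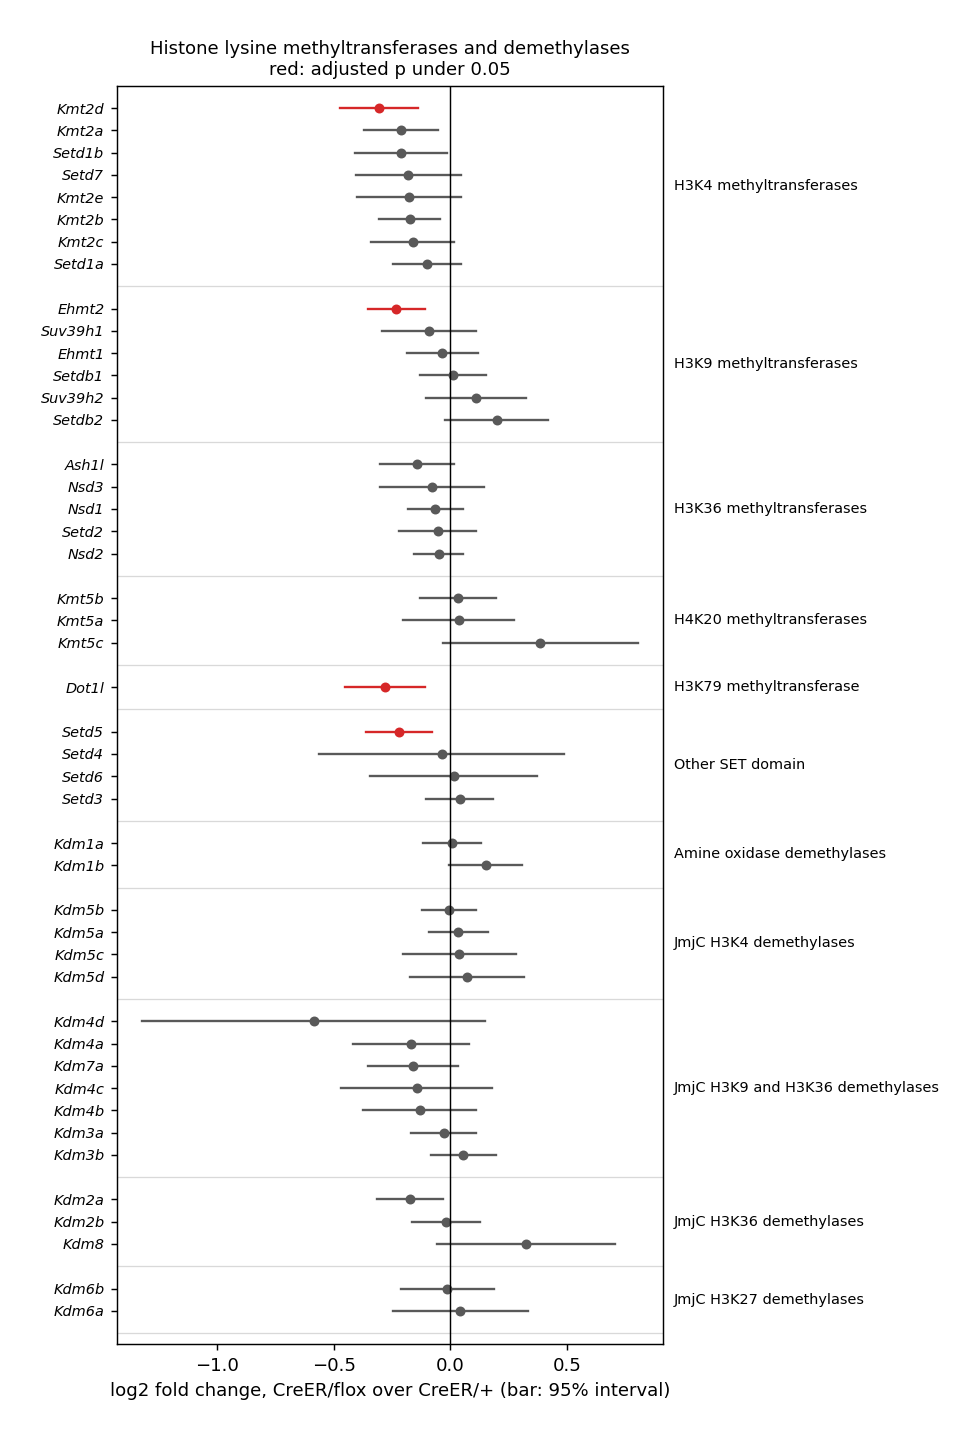
Log2 fold change of CreER/flox over CreER/+ (horizontal axis) for each of the 45 genes (vertical axis, grouped by role), with bars for the 95% interval computed from the authors' SE and red for an adjusted p under 0.05. The 8 H3K4 methyltransferase genes all sit left of 0, and Kmt2d, Ehmt2, Dot1l and Setd5 are the 4 called.

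Among H3K9 methyltransferases 1 of 6 was called and the group had no common direction, with 3 members below 0 and 3 above. Ehmt2 (Entrez gene 110147, chromosome 17, 34898463 to 34914073) encodes G9a, the main enzyme of H3K9 dimethylation in euchromatin. It fell by 0.23 (SE 0.06, adjusted p 0.01003) at a mean count of 2899 per the authors' deposited table, with an interval of -21.8% to -7.40%, and had the smallest p of the 45 genes. Ehmt1 encodes GLP, with which G9a forms a heterodimer, and stood at -0.035 (SE 0.08, adjusted p 0.865) per the authors' deposited table, with an interval of -12.2% to 8.50%. The intervals of these partner genes overlap, and their difference was not tested.

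The H3K9 trimethylases of constitutive heterochromatin, Suv39h1 on the X chromosome and the germline-enriched Suv39h2, were at -0.091 (SE 0.10) and 0.11 (SE 0.11) per the authors' deposited table. Setdb1, which silences retroelements, was at 0.011 (SE 0.07) and its paralogue Setdb2 at 0.20 (SE 0.11, adjusted p 0.323) per the authors' deposited table.

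H3K79 is methylated by DOT1L alone among the enzymes listed. Dot1l (Entrez gene 208266, chromosome 10, 80755101 to 80795461) fell by 0.28 (SE 0.09, adjusted p 0.0346) at a mean count of 1138 per the authors' deposited table, with an interval of -26.9% to -7.22%. Setd5 (Entrez gene 72895, chromosome 6, 113077262 to 113153432), a SET-domain protein whose histone activity is debated, fell by 0.22 (SE 0.07, adjusted p 0.0427) at a mean count of 3220 per the authors' deposited table, with an interval of -22.1% to -5.42%. It was the called gene nearest to the threshold, and Kmt2a at 0.0989 was the nearest uncalled one. The other SET-domain genes were Setd3, the actin histidine methyltransferase, at 0.039 (SE 0.07), Setd4 at -0.038 (SE 0.27) and Setd6, which methylates the NF-kappaB subunit RELA, at 0.015 (SE 0.18), all per the authors' deposited table. The intervals of Setd4 and Setd6, whose mean counts are 64.0 and 124, reach changes of over 20% in both directions. No annotated GENCODE exon of another gene overlaps the exons of Kmt2d, Ehmt2, Dot1l or Setd5, whereas 19 of the 45 genes have such an overlap.

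None of the 5 H3K36 methyltransferase genes was called, and all were below 0 by small amounts per the authors' deposited table. The H3K36 trimethylase Setd2 was at -0.054 (SE 0.08), the dimethylases Nsd1, Nsd2 and Nsd3 at -0.065 (SE 0.06), -0.050 (SE 0.05) and -0.079 (SE 0.11), and Ash1l at -0.14 (SE 0.08, adjusted p 0.317, mean count 2239). The precision is high for Nsd1 and Nsd2, at mean counts of 4047 and 3667, whose intervals ran from -11.9% to 3.73% and from -10.2% to 3.87%.

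H4K20 methyltransferase genes were all above 0 without a call. Kmt5a, the monomethylase linked to mitosis, and Kmt5b, which adds further methyl groups, were at 0.036 (SE 0.12) and 0.032 (SE 0.08) per the authors' deposited table. Kmt5c had the highest log2 fold change of the list, 0.39 (SE 0.21, adjusted p 0.303), at a mean count of 109.9.

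The remaining demethylases held no call, with a smallest adjusted p of 0.135 for the H3K36 demethylase Kdm2a (-0.17, SE 0.07, unadjusted p 0.0156, mean count 2133) per the authors' deposited table. Its paralogue Kdm2b, which guides a Polycomb complex to CpG islands, was at -0.019 (SE 0.07), and Kdm8 at 0.32 (SE 0.20, adjusted p 0.358) with a mean count of 108, both per the authors' deposited table. The H3K9 demethylases Kdm3a, needed for spermatid genes, and Kdm3b were at -0.029 (SE 0.07) and 0.055 (SE 0.07) per the authors' deposited table. The 4 Kdm4 genes, whose products act on H3K9 and in part on H3K36, and Kdm7a were all below 0. Kdm4a, Kdm4b, Kdm4c and Kdm7a were at -0.17 (SE 0.13), -0.13 (SE 0.12), -0.14 (SE 0.16) and -0.16 (SE 0.10, adjusted p 0.365, mean count 681) per the authors' deposited table. Kdm4d, known for its expression in spermatids, had the lowest log2 fold change of the list, -0.59 (SE 0.37, adjusted p 0.397), and the lowest mean count, 49.5, per the authors' deposited table. Its 95% interval ran from -60.0% to 10.9%. The spermatid markers Odf1 and Spem1 stood at -1.14 (SE 0.22) and -1.47 (SE 0.33) in that deposited table, and a link of Kdm4d to them was not tested. The H3K27 demethylases Kdm6a and Kdm6b were at 0.042 (SE 0.15, adjusted p 0.922, mean count 281.7) and -0.014 (SE 0.10, adjusted p 0.965) per the authors' deposited table.

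Levels of the genes were compared per kb of the longest GENCODE transcript, as mean normalized count over all libraries, with no spread over samples. The median member had 175 counts per kb, against 66.4 for all genes with a length, and 36 of 45 lay above that median. Kdm5b was highest with 758 counts per kb, followed by Ehmt2 with 720, Kdm1a with 678 and Setd3 with 613. Kdm4d, Setd4, Kmt5c and Kdm4c were lowest, with 18.4, 24.5, 39.6 and 39.9 counts per kb. Within families the levels spread widely, as for Ehmt2 against Ehmt1 (720 and 232 counts per kb) or Kdm5b against Kdm5c (758 and 50.9). The X-linked Kdm5c and the Y-linked Kdm5d had like levels of 50.9 and 45.1 counts per kb, and the X-linked Kdm6a had 47.5 beside 71.0 for its Y-linked homologue Uty. No source used here states how reads shared between such homologues were counted.

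**Figure D2:**
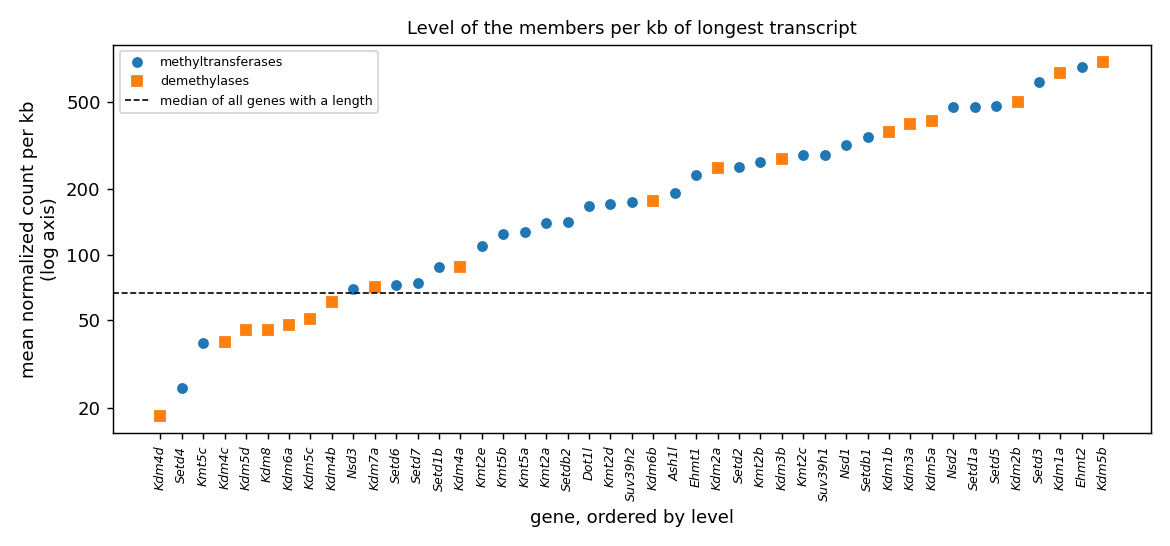
Mean normalized count per kb of longest transcript (vertical log axis) for the 45 genes ordered by level, circles for methyltransferases and squares for demethylases, with the median of all genes dashed. Levels run from 18.4 for Kdm4d to 758 for Kdm5b, and 36 genes lie above the dashed line at 66.4.

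The genes of this list have long transcripts, with a median of 6363 bases against 3330 for all genes with a length, and in these data the median fold change fell with transcript length above 3 kb. Among all protein-coding genes, the median log2 fold change was 0.015 for transcripts of 3 to 5 kb (4734 genes), -0.031 for 5 to 8 kb (2328 genes), -0.076 for 8 to 12 kb (658 genes) and -0.15 above 12 kb (165 genes). The share called lower was 13.9% above 12 kb. The 4 members above 12 kb, Kmt2d, Kmt2a, Kmt2c and Nsd1, had transcripts of 19823, 16470, 14967 and 12784 bases and a median of -0.19. Of the 28 members of at least 5 kb, 21 were below 0, against 59.6% of 3123 other genes of that length. Of the 17 shorter members, 8 were below 0. Across the 45 genes, log2 fold change and log10 transcript length had Pearson's r of -0.36 and Spearman's rho of -0.42, where the points share the same libraries and are not independent. Over all 13712 protein-coding genes the same values were 0.015 and -0.079, so the relation with length was weak across the whole range and the lower medians belong to the longer transcripts. Over these genes Pearson's r was 0.23 for log10 mean count and -0.099 for GC content.

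A trend of the fold change with length, GC content and mean count was fitted over 13712 protein-coding genes and subtracted, after which 0 of the 45 genes passed (5 at an unadjusted p under 0.05), while 394 genes in all did. For Kmt2d the fitted value for a gene of its length, GC content and count was -0.25, which left the value given above. The fit removes the 3 properties together, and their separate shares were not tested. Setd5 kept most of its value, with -0.20 left (adjusted p 0.122), as did Ehmt2 with -0.18 (adjusted p 0.0877) and Dot1l less so with -0.18 (adjusted p 0.312). The 8 H3K4 methyltransferase genes then ranged from -0.16 to -0.019 with a median of -0.057, all below 0 and none passing (smallest adjusted p 0.555). The lowest were Kmt2e (-0.16) and Setd7 (-0.14). Kmt2a to Kmt2d, Setd1a and Setd1b lay between -0.061 and -0.019, each smaller in size than its SE, with adjusted p values of at least 0.840. The 4 Kdm5 genes ranged from 0.038 to 0.13. The whole list had a median of -0.026, with 27 of 45 below 0. Over the 13712 protein-coding genes the median was then 0.0094, with 6570 below 0.

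**Figure D3:**
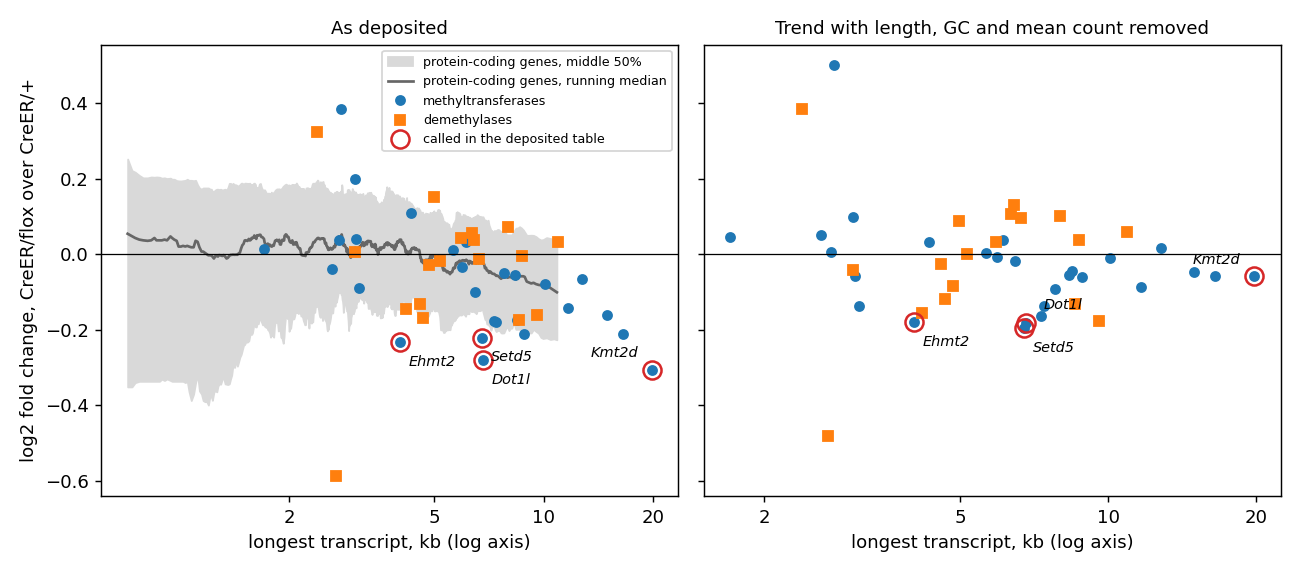
Log2 fold change of CreER/flox over CreER/+ (vertical axis) against the length of the longest transcript (log axis, kb) for the 45 genes, as deposited (left) and with the fitted trend removed (right). The grey line and band are the running median and middle 50% of protein-coding genes, and Kmt2d moves from -0.31 to -0.059 between the panels while Ehmt2 moves from -0.23 to -0.18.

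Genes whose products work with these enzymes were listed by complex. The list gave 35 measured genes, of which 2 were called lower and none higher by the authors' DESeq2 test (7 lower and 3 higher at an unadjusted p under 0.05). That is 5.71% of the list, beside 5.36% of all genes called and 3.42% called lower. The median log2 fold change of the partners was 0.019, with 16 of 35 below 0. With the trend removed it was -0.053, with 23 of 35 below 0, beside -0.026 and 27 of 45 for the enzyme genes. Of 13 subunits of the MLL/COMPASS complexes, which hold the H3K4 methyltransferases, 0 were called and 5 were below 0. At an unadjusted p under 0.05, 1 was lower and 1 higher. The core subunits Wdr5, Rbbp5, Ash2l and Dpy30 stood at 0.040, 0.14, 0.014 and 0.21 per the authors' deposited table, and the lowest was Ncoa6, of the KMT2C and KMT2D complexes, at -0.25 (SE 0.09, adjusted p 0.0973). Cxxc1 had the smallest p and went the other way, at 0.19 (SE 0.07, adjusted p 0.0959 by the authors' DESeq2 test). With the trend removed, Cxxc1 stood at 0.18 and Ncoa6 at -0.20. With the trend removed, 8 of the 13 subunits were below 0, among them Wdr5 (-0.0081), Ash2l (-0.085) and Dpy30 (-0.0066). The difference between these subunits and the catalytic genes was not tested.

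The 2 called partner genes were Wiz and Mllt6, from a list called at about the share of all genes. Wiz, a zinc finger protein that binds G9a and GLP, fell by 0.30 (SE 0.10, adjusted p 0.0359) at a mean count of 489 per the authors' deposited table, and was the 1 called gene among 9 heterochromatin partners. The heterochromatin protein gene Cbx1 stood at 0.29 (SE 0.11, adjusted p 0.114) and the corepressor gene Trim28 at 0.050 (SE 0.07) per the authors' deposited table. Among 6 genes of proteins that bind DOT1L or its elongation complexes, Mllt6 fell by 0.30 (SE 0.09, adjusted p 0.0254) per the authors' deposited table. Mllt1 and Mllt10 were at -0.30 (SE 0.13, adjusted p 0.178) and -0.20 (SE 0.09, adjusted p 0.161) in that deposited table, and 4 of the 6 were below 0. With the trend removed, Wiz was at -0.19 (adjusted p 0.325) and Mllt6 at -0.19 (adjusted p 0.312), so neither passed. Of 7 genes of the LSD1-CoREST complex none was called (2 lower and 1 higher at an unadjusted p under 0.05), and Hdac2 stood at 0.16 (SE 0.07) and Rcor3 at -0.71 (SE 0.34) per the authors' deposited table.

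**Figure D4:**
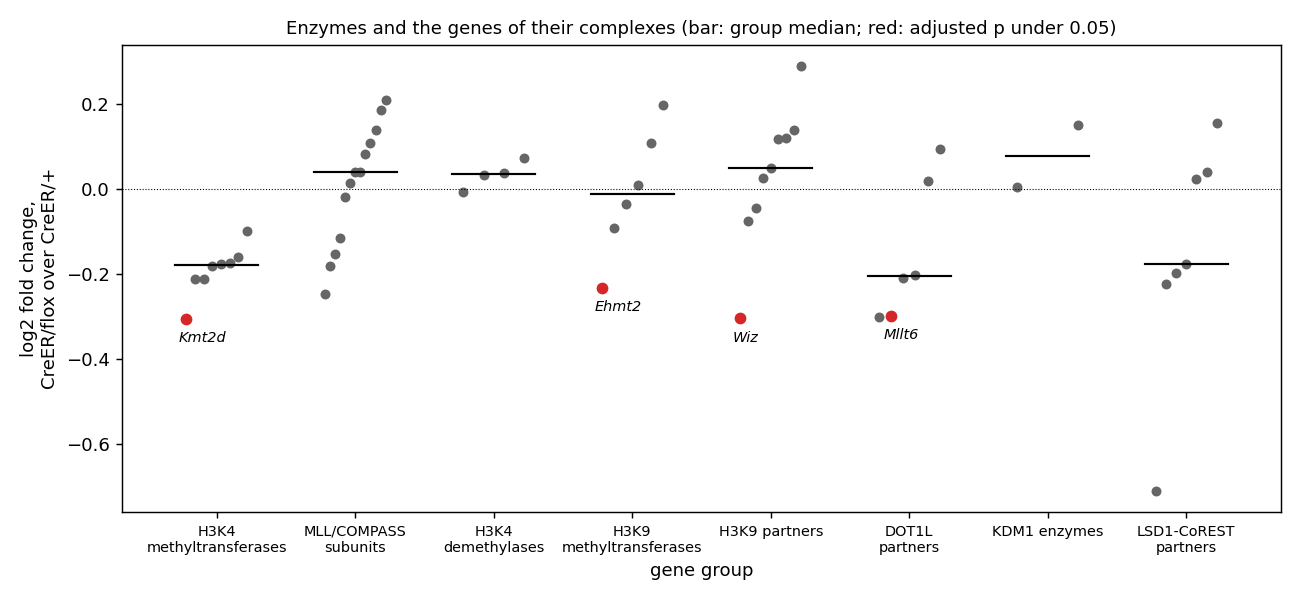
Log2 fold change of CreER/flox over CreER/+ (vertical axis) for genes of 4 enzyme groups (H3K4 and H3K9 methyltransferases, H3K4 and KDM1 demethylases) and of 4 sets of partners, 1 point a gene, with a bar at the group median and red for an adjusted p under 0.05. The H3K4 methyltransferases have a median of -0.18, the MLL/COMPASS subunits 0.040 and the H3K4 demethylases 0.036, and the called genes shown are Kmt2d, Ehmt2, Wiz and Mllt6. With the trend removed (not drawn) these medians were -0.057, -0.0081 and 0.080.

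Other SET, PRDM and JmjC genes outside the naming rule held 27 measured genes of 32 listed, of which none was called by the authors' DESeq2 test (3 lower and 2 higher at an unadjusted p under 0.05) and 18 were below 0. The H3K9 demethylase gene Phf2 came nearest, at -0.60 (SE 0.20, adjusted p 0.0529) and a mean count of 161 per the authors' deposited table. Jmjd1c, a relative of Kdm3a needed to maintain spermatogonia, was at -0.17 (SE 0.09, adjusted p 0.244), Ezh2, the H3K27 methyltransferase, at 0.14 (SE 0.10, adjusted p 0.492), and the meiotic Prdm9 at -0.62 (SE 0.50, adjusted p 0.534) per the authors' deposited table.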

How the data were processed

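Per the submitters' processing notes, the tools were DESeq2, TopHat2 2.0.4, Bowtie, Bowtie2 2.0.0-6 and Trim Galore, with mm10 and GRCm38 as builds. Per the labels' protocols, libraries came from total RNA by a stranded, low-input kit. No source used here states the read counter, its strand setting or its annotation. The deposited table holds, per gene, the authors' mean normalized count signal over all libraries, the log2 fold change and its SE fitted by the authors, the Wald score, and the authors' p-values and adjusted p-values. Every deposited mean count was above 10. Library totals were not used here, so mean counts and SEs stand for the precision.

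The deposited Wald scores equalled the log2 fold change over its SE to within 2.58e-07, and a Benjamini-Hochberg adjustment over all 14853 rows returned the adjusted p-values to within 0.426%. From the table were computed 95% intervals (normal distribution), counts per kb and counts of called genes. No model was fitted across libraries. Names and coordinates came from RefSeq (GRCm38.p6), matched by Entrez ID for 14828 rows. Lengths and GC content came from the longest GENCODE M21 transcript, found for 45 of 45 members and 99.8% of protein-coding rows. The trend was a weighted least-squares fit (weights 1/SE squared) on log10 length, GC percent and log10 mean count with their squares, and p-values were readjusted over 13712 rows. Steps were checked on simulated data. Members, lists and alternatives were chosen with earlier results of these data known. Each member is named; called ones, and the smallest p of each role, carry full statistics. Of partners and other enzymes, called genes were named, and uncalled ones beside them were chosen after their values were seen. Computations ran in Python 3.11.15 (scipy 1.17.1, numpy 2.4.6, pandas 2.3.3), and plots in matplotlib 3.10.9.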

Additional observations from a re-analysis of the deposited data

How the results depend on the processing

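The 4 called genes depend on the threshold, the distribution taken for the Wald statistic and the removal of a joint trend with length, GC content and mean count. The count of called members was 0 with an adjusted p under 0.01, 0 with a minimum absolute log2 fold change of 0.5 (all 4 lie below it in size), 0 with a t distribution of 6 degrees of freedom (6 at an unadjusted p under 0.05), 0 with statistics divided by their central SD of 1.45 (4 unadjusted) and 0 with the trend with length, GC content and mean count removed (5 unadjusted). Over all genes these settings gave 264, 528, 0, 5 and 394 calls in place of 796. The count stayed at 4 with adjustment over genes of mean count 100 or more, with centring, with RefSeq symbols and with identical rows counted once, and was 6 at an adjusted p under 0.1. The median of the list was -0.050, between -0.051 and -0.026 under its 4 alternatives. Of 223 values of single members under the 5 alternatives that give one per gene, 12 ended a call, all those of Kmt2d, Ehmt2, Dot1l and Setd5 under the t distribution, the central SD and the trend, and the rest kept their side of the threshold. No paired analysis was possible because the table holds the authors' comparison without values per library. For the same reason leaving out replicates, edgeR and another DESeq2 fit were not run. At mean counts near 100 or below, as for Kmt5c, Kdm8, Setd4 and Kdm4d, SEs of 0.20 to 0.37 leave changes of the size of the called genes not detectable.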
